A study of Mus musculus with 20 samples.

Results

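The introns of 6 genes that govern leukemia and proliferation in murine erythroleukemia (MEL) cells were followed: Spi1, Fli1, Myb, Myc, Kit and Cdk6. Every intron line of these genes was taken from the deposited tables by its transcript identifier, which gave 27 of 59391 introns in untreated cells and 5 of 53105 in treated cells. Of the 6 genes, 4 had a line. Kit and Cdk6 had none, and no intron of another gene overlapped their loci in the tables.

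MEL cells are a mouse line of transformed red cell precursors, arising from Friend virus disease, that resume maturation when given dimethyl sulfoxide (DMSO). The wild-type line was sequenced as nascent RNA, in long reads, uninduced and after 5 days in 2% DMSO. Each condition had 4 libraries, from 2 biological replicates run on 2 PacBio instruments. RNA of both groups was bound to chromatin and depleted of polyadenylated and ribosomal RNA. The tables give 1 pooled line per intron and condition, which leaves the spread between replicates unknown, and each comparison, tests included, is of 2 pools of reads and not of the conditions.

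In Friend disease, viral integration switches on a gene of the ETS family of transcription factors: Spi1, which encodes PU.1, in the lineage from which MEL cells come, or Fli1 in a related one. PU.1 restrains the erythroid program, and its decline is part of how MEL cells leave self-renewal. MYB and MYC are nuclear factors that keep immature blood cells dividing; their forced expression is known to hinder MEL maturation. KIT is the receptor for stem cell factor on early progenitors, and CDK6 is a kinase that drives entry into the cell cycle.

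Each intron was described by the number of reads spliced at it and the number left unspliced. A read was counted once at every intron it covered; such counts are called observations here, and those of neighbouring introns can come from the same molecule. The uninduced pool held 416379 observations and the induced pool 279371. Co-transcriptional splicing efficiency (coSE) is the fraction of reads spliced, with a median of 0.933 over the 9982 uninduced introns with at least 10 reads. Of 12 erythroid marker genes, all had a line, and 10 had an at least 2-fold larger share of observations in the induced pool. Over all 5923 genes with at least 10 observations, 21.6% did. Slc4a1 and Epb42, among the 10, had 0 uninduced observations. Scaled by the median ratio of genes, or by totals without globin and ribosomal protein genes, 9 were called, without Gata1. By the deepest intron 11 were. The summed share of the 12 genes was 521 per 100000 uninduced and 4069 per 100000 induced. None of 9 myeloid and none of 5 lymphoid marker genes had a line, while 3 of 5 megakaryocytic ones did. Of these, Pf4 had 80 uninduced and 10 induced observations and Itga2b 26 and 202.

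Myb had 150 uninduced observations, Fli1 23, Spi1 9 and Myc 4. Myb was thus the deepest of these genes, and its coSE differed from intron to intron. The splice sites of 3 neighbouring introns, for which the deposited tables also give splicing intermediates, are shown because the least and the best spliced of the deep introns lie side by side among them. Each 5′ splice site has 3 exon and 6 intron bases, and each 3′ splice site has 20 intron and 3 exon bases, with the first or last pair of intron bases in capitals.
Myb intron 5, 5′ splice site: acgGTaaga
Myb intron 5, 3′ splice site: tatggtacatttctacacAGgac
Myb intron 6, 5′ splice site: aacGTaagc
Myb intron 6, 3′ splice site: gttttcttttcctggtctAGatc
Myb intron 7, 5′ splice site: cagGTgaga
Myb intron 7, 3′ splice site: tgcttcacttgaaactctAGaga

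Exon 7 of 15 lies between introns 6 and 7, the pair with the lowest coSE among introns with at least 10 reads. It spans chr10:21148778-21148858 on the minus strand of GRCm38. At 81 bases it keeps the reading frame if left out. The GENCODE transcript sequence of this exon is shown, with the 3 bases that belong to the 5′ splice site of intron 7 in capitals.
Myb exon 7: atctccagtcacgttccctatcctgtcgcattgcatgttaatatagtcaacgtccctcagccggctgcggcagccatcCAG

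Myb (ENSMUSG00000019982.15, chromosome 10, 21124935 to 21160984, minus strand) encodes a DNA-binding factor needed for definitive blood formation. All 14 introns of its tabulated transcript lie between coding exons, and all had uninduced reads. Over the gene, 105 observations were spliced and 45 unspliced, a coSE of 0.70 (Wilson 95% interval 0.622 to 0.768). Among the 971 genes with at least 100 uninduced observations, the median coSE was 0.904, and 73 genes (7.52%) were at or below Myb. Intervals here and below cover counting error only, and those of sums over introns are too narrow because introns share reads.

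Reads per intron climbed from 3 at intron 1 to 23 at intron 6 and came down to 5 at intron 14. Introns 1 to 4 together had 29 spliced and 13 unspliced observations, a coSE of 0.690 (interval 0.540 to 0.809). Intron 1 (21156458 to 21160695), of 4238 nt, had 2 spliced and 1 unspliced read. Intron 2 (21154756 to 21156339) was spliced in 7 of 11 reads, intron 3 (21152985 to 21154683) in 9 of 13 and intron 4 (21152657 to 21152891) in 11 of 15, so these 3 introns lay between 0.636 and 0.733.

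Among the introns with at least 10 reads, the highest and the lowest coSE both lay in the middle of the gene. Intron 5 (21150541 to 21152435), of 1895 nt, was spliced in all 17 reads, a coSE of 1 (interval 0.816 to 1). Intron 6 (21148859 to 21150305), of 1447 nt, was spliced in 13 of 23 reads, a coSE of 0.565 (interval 0.368 to 0.744). Intron 7 (21148437 to 21148777), of 341 nt, was spliced in 12 of 21 reads, a coSE of 0.571 (interval 0.365 to 0.755). Intron 8 (21146441 to 21148331), of 1891 nt, was spliced in all 10 reads (interval 0.722 to 1).

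The interval of intron 5 did not overlap those of introns 6 and 7, while that of intron 8 did. This contrast was noticed in the counts and was not tested, because the same reads can cover all 4 introns. A coSE of 1 was common elsewhere, at 37.0% of uninduced introns with at least 10 reads; a coSE at or below that of Myb intron 6 was found at 985 of 9982 such introns (9.87%). All 3 annotated transcripts that span intron 6 splice it out. Of 4 that span intron 7, 3 splice it out and 1 contains it whole within an exon.

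Towards the 3′ end each intron had 5 to 8 reads. Introns 9 to 14 together were spliced in 24 of 37 observations, a coSE of 0.649 (interval 0.488 to 0.782). Intron 9 (21143093 to 21146185), which 2 of 3 annotated transcripts that span it splice out, was spliced in 6 of 7 reads. Intron 12 (21140678 to 21141758) was spliced in 3 of 8, the lowest coSE of the gene at 0.375, with an interval from 0.137 to 0.694. The shortest intron, intron 11 with 87 nt, and the longest, intron 14 with 13003 nt, were spliced in 4 of 6 and 3 of 5 reads. At this depth the introns at the 3′ end cannot be ranked.

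**Figure D1:**
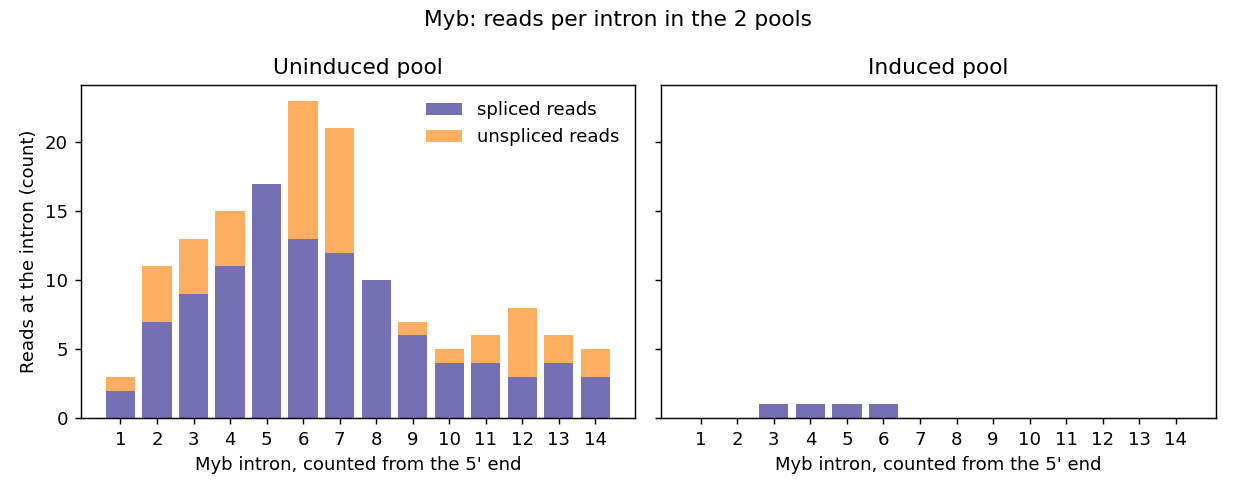
Spliced and unspliced reads (stacked bars, counts) at each of the 14 introns of Myb, numbered from the 5′ end, in the uninduced pool (left) and the induced pool (right). Unspliced reads are absent at introns 5 and 8 and number 10 and 9 at introns 6 and 7; the induced pool has 1 spliced read at each of introns 3 to 6.

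Splicing intermediates are RNAs that have passed the first of the pair of splicing reactions, so that the upstream exon is free at its 3′ end. How they were recognised among the reads is not given in the sources used here. NIC is their deposited fraction among intermediates plus spliced reads. Intron 7 of Myb had 7 intermediates and 6 spliced reads, a NIC of 0.538 (Wilson 95% interval 0.291 to 0.768). Intron 6 had 3 and 7, a NIC of 0.300 (interval 0.108 to 0.603), and intron 5 had 1 and 11, a NIC of 0.0833 (interval 0.0149 to 0.354). NIC was thus highest at intron 7 and lowest at intron 5, with intervals that overlapped.

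Intermediates made up 2.71% of such reads over all 5568 uninduced introns of that table. A NIC at or above that of Myb intron 7 was found at 40 introns (0.718%), and at or above that of intron 6 at 136 (2.44%). These ranks were not matched for depth. Fractions of 13 and 10 reads, as at introns 7 and 6, vary more by counting than those of deeper introns. With the 3 introns added, Myb had 11 intermediates among 35 reads, or 31.4%. Of 921 genes with at least 20 such reads, 3 including Myb were at or above this value, and the median gene was at 0.0244. Only these 3 of the 14 introns of Myb were listed with intermediates. Introns 6 and 7 had 10 and 13 reads there with their intermediates and 7 and 6 without. If entry depended on such reads, the intermediates helped to let these introns in. The summed fraction and its rank are therefore given as a description. The table of intermediates gave 6 fewer spliced reads than the table of coSE at each of the 3 introns, by a rule not given in the sources used here. With the larger spliced counts, intermediates made up 11 of 53 reads of Myb, or 20.8% (interval 12 to 33.5), beside 2.27% over all introns. On these counts, an alternative added after seeing the data, 4 of 1017 genes including Myb were at or above its value. NIC was then 0.368 at intron 7, 0.188 at intron 6 and 0.0556 at intron 5, in the same order.

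The splice sites of these introns differed in their deposited scores, in which a higher score is taken to mean a closer match to a consensus site. The 3′ splice site of intron 7 scored 3.75, against a median of 8.70, and 4.26% of the uninduced introns in that table scored as low or lower. Its 5′ splice site scored 9.22, above the median of 8.76. Intron 6 had the reverse arrangement: its 5′ splice site, which follows an exon ending in C, scored 7.35, with 24.0% of introns at or below, and its 3′ splice site scored 9.76. Intron 5 scored 10.65 at its 5′ end and 6.66 at its 3′ end. GC content was 40.9%, 40.4% and 46.3% for introns 5, 6 and 7, against a median of 43.4%. Introns 6 and 7 thus each had 1 site below the median, and so did the fully spliced intron 5.

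**Figure D2:**
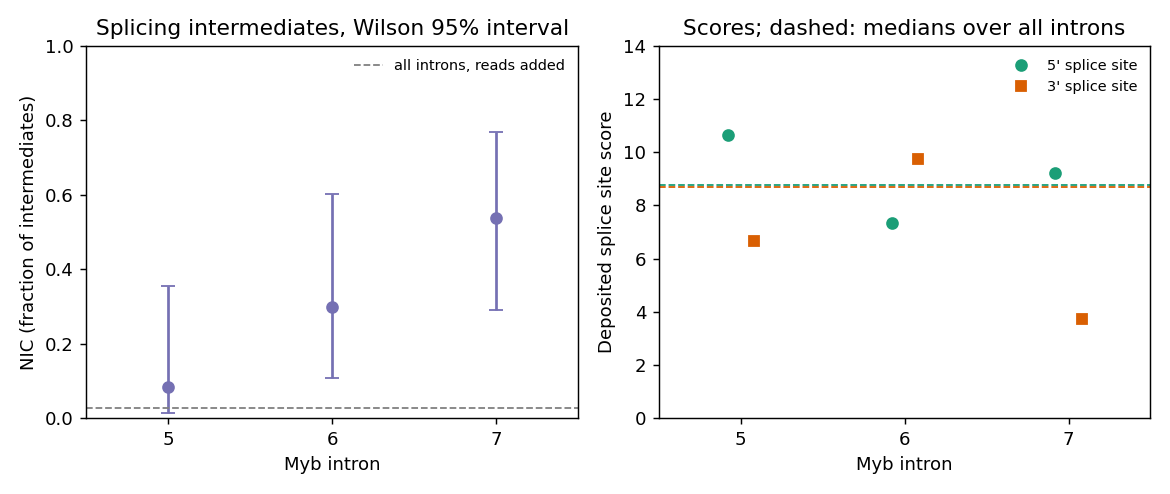
Left, NIC of Myb introns 5, 6 and 7 in the uninduced pool with Wilson 95% intervals, beside the value over all introns with reads added (dashed); right, the deposited scores of their 5′ and 3′ splice sites beside the medians over all introns (dashed). NIC reads 0.0833, 0.300 and 0.538 from intron 5 to intron 7, and the lowest score is that of the 3′ splice site of intron 7, at 3.75.

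The share of Myb in the pool was much smaller after induction. The 150 uninduced observations corresponded to 36.0 per 100000 and the 4 induced ones to 1.43 per 100000, a share 25.2-fold lower (exact 95% counting interval 9.63 to 93.5; log2 ratio -4.65). The 4 induced observations were 1 spliced read each at introns 3, 4, 5 and 6, which can all come from 1 molecule. At the deepest intron the counts were 23 and 1 reads, or 15.4-fold lower (interval 2.51 to 636). Over the 4 introns with reads in both pools the share was 11.8-fold lower. In such samples fewer transcribing cells and less nascent RNA per cell cannot be told apart.

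A share at least 2-fold lower was found for 29.4% of the 5923 genes with at least 10 observations in both pools added together, and at least 2-fold higher for 21.6%. The median log2 ratio over these genes was -0.14. Among the 971 genes with at least 100 uninduced observations, where the choice by the uninduced count itself favours lower ratios, the median was -0.40. At least 9 of these, Myb included, had a ratio at or below that of Myb, a minimum because genes with 0 induced observations were set to 3 counts. This rank is given as a description. coSE of Myb could not be compared between the pools: with 4 induced observations it was under the minimum of 10 that was set in each pool.

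Spi1 (ENSMUSG00000002111.8, chromosome 2, 91082390 to 91115756, plus strand) had 9 uninduced observations and no induced line. Intron 1 (91096994 to 91099429), of 2436 nt, was spliced in all 5 reads (interval 0.566 to 1). Intron 2 (91099527 to 91113254), of 13728 nt, was spliced in 2 of 4 reads (interval 0.15 to 0.85). Intron 3 was listed with 0 reads and intron 4 was not listed. Summed, 7 of 9 observations were spliced, a coSE of 0.778 (interval 0.453 to 0.937), which does not separate it from the other members.

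If an absent line is read as 0 reads, a floor of 3 counts puts the share of Spi1 at least 2.01-fold lower in the induced pool, and at least 1.12-fold lower at its deepest intron. Of the 916 genes with 7 to 11 uninduced observations, 197 (21.5%) also had none in the induced pool. The absence of Spi1 was therefore frequent for genes of its depth.

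Fli1 (ENSMUSG00000016087.13, chromosome 9, 32422204 to 32542861, minus strand), the ETS factor known for its part in megakaryocytes and in Friend disease, had reads at all 8 introns of its transcript in the uninduced pool and no induced line. Reads per intron ran from 1 to 6, the deepest being the first intron (32476774 to 32541190), which is 64417 nt long and was spliced in 4 of 6 reads (interval 0.300 to 0.903). Intron 2 was spliced in 4 of 5 reads, intron 3 in 4 of 4 and intron 4 in 2 of 2. Introns 5, 6 and 8 had a single spliced read each, and intron 7 was spliced in 2 of 3. Unspliced reads were thus found at 3 of the 8 introns, 1, 2 and 7.

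Over the gene, 19 of 23 observations were spliced, a coSE of 0.826 (interval 0.629 to 0.930), beside a median of 0.864 over the 783 genes with 20 to 29 uninduced observations. Its median intron length of 6641 nt was above the 1226 nt over all tabulated introns. With an absent line read as 0, the share of Fli1 was at least 5.14-fold lower in the induced pool, from 5.52 per 100000. At its deepest intron the bound was 1.34-fold. Of the 848 genes with 20 to 30 uninduced observations, 63 (7.43%) had none in the induced pool.

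**Figure D3:**
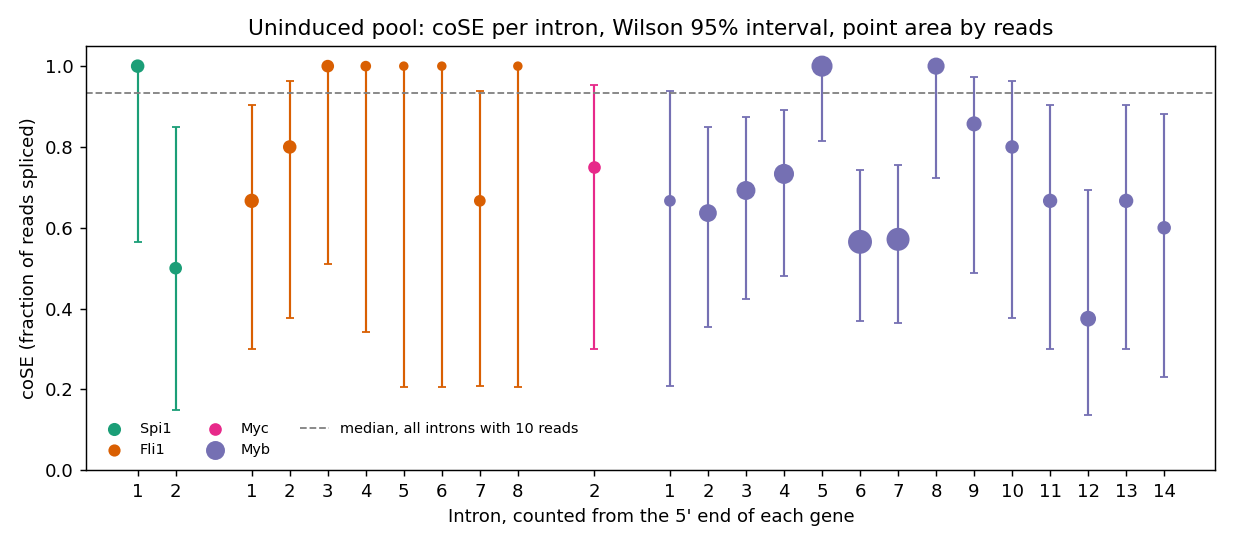
coSE in the uninduced pool at each intron with a read of Spi1, Fli1, Myc and Myb (points, with an area set by the number of reads) with Wilson 95% intervals; the dashed line is the median over all introns with at least 10 reads. Myb introns 6 and 7, with 23 and 21 reads, lie at 0.565 and 0.571 between introns 5 and 8 at 1, and the other genes have at most 6 reads at any intron.

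Myc (ENSMUSG00000022346.15, chromosome 15, 61985391 to 61990374, plus strand), a factor that drives growth and ribosome production, was nearly without reads. Intron 1 (61985952 to 61987506) was listed with 0 reads in both pools. Intron 2 (61988279 to 61989345) had 3 spliced and 1 unspliced uninduced read, a coSE of 0.750 (interval 0.301 to 0.954), and no induced line. No fold is given, since its 0.961 observations per 100000 lie under the 3-count floor of the induced pool, 1.07 per 100000.

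By reads at the deepest intron in the uninduced pool, the order was Myb with 23 (exact Poisson 95% interval 14.6 to 34.5), Fli1 with 6 (interval 2.20 to 13.1), Spi1 with 5 (interval 1.62 to 11.7) and Myc with 4 (interval 1.09 to 10.2). Myb stood above the others by its interval, and the other 3 could not be told apart. For Kit and Cdk6 no level is given, because the rule by which an intron entered the tables is not given in the sources used here.

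No intron of the members had 10 reads in both pools, so none entered the test of coSE between the pools (two-sided Fisher's exact test per intron, Benjamini-Hochberg adjusted, 1.61% of 4403 introns called, 1.25% lower and 0.363% higher in the induced pool). No member gene entered the test on summed observations either (10.9% of 3529 genes called, 3.8% lower and 7.08% higher; 19 of 1009 genes when only the deepest intron of each was used, so that no read counted more than once for a gene), nor that on intermediates (1.53% of 458 genes called, all higher). With no minimum, Myb entered the second of these, with coSE 0.70 and 1 and an adjusted p of 0.907 by Fisher's exact test.

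**Figure D4:**
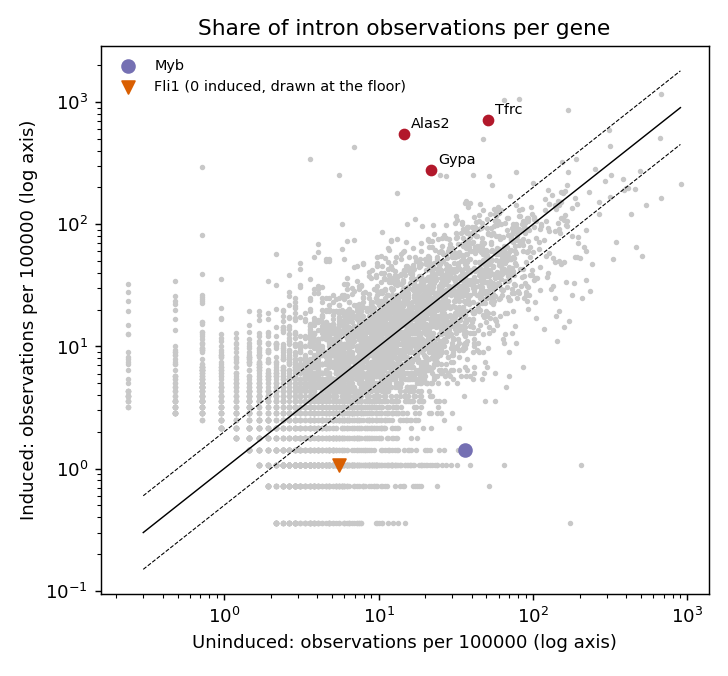
Share of intron observations per gene in the uninduced (x) and induced (y) pools, per 100000 observations on log axes, for 5923 genes with at least 10 observations; a gene with 0 in a pool is drawn at 3 counts, the solid line marks equal shares and the dashed lines 2-fold differences. Myb lies at 36.0 and 1.43, Fli1 at 5.52 and the floor, and 3 erythroid genes are drawn for orientation.

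Genes that act with the members were read from 5 lists. The lists are described by counts of genes with an at least 2-fold difference in share, beside the 29.4% lower and 21.6% higher over all genes; genes named for such a difference were chosen after their values were seen. In the MYC network, 9 of 10 genes had a line and 6 had at least 10 observations, of which 1 was lower and 1 higher (median log2 ratio -0.07). Mlx, a partner of glucose-sensing MYC relatives, had 43 uninduced and 7 induced observations. Mxd1, a repressor that competes with MYC for MAX and is known to come up in maturing cells, had 1 and 11, a share 16.4-fold higher with an interval from 2.38 to 706. Mga, the deepest gene of this list, had 57 and 35, close to the ratio of the pools.

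Among partners of MYB and PU.1, 8 of 14 had a line and 7 had at least 10 observations: 2 were lower and 3 higher, with a median log2 ratio of 0.13. The coactivator Ep300 had 63 uninduced and 118 induced observations, a 2.79-fold larger share. Gfi1b, which encodes a transcriptional repressor that acts in the erythroid and megakaryocytic lineages, had 44 and 77, a 2.61-fold larger share. Mybl2, a relative of Myb that acts in the cell cycle, had 3 and 11. Runx1 had 29 and 9, with a counting interval that holds a ratio of 1, and its partner Cbfb 10 and 0. The list thus held differences in both directions, but the lower ones depended on the setting. Over introns with reads in both pools, 0 of 5 genes were lower and 2 higher, beside 19.3% and 17.8% of all genes. Among genes with at least 50 observations, 0 of 3 were lower and 2 higher, beside 24.0% and 18.5%. By the deepest intron, 1 of 4 was lower and 2 higher, beside 23.5% and 20.0%. The coactivator Crebbp, with 60 and 44, differed by less than 2-fold.

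The ETS family had 9 of 13 genes with a line and 4 with at least 10 observations, of which Elf1 was lower, with 45 and 15 observations, and Elf2 higher, with 8 and 16. The median log2 ratio was 0.23. For Elf1 the share was 2.01-fold lower, just past the 2-fold mark.

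For KIT signalling, 16 of 21 genes had a line, and 11 had at least 10 observations, of which 5 were lower and 1 higher (median log2 ratio -0.97). The phosphatase gene Ptpn6 had 34 uninduced and 4 induced observations, a 5.70-fold lower share, and the ubiquitin ligase gene Cbl 30 and 5, a 4.03-fold lower share. The kinase gene Lyn had 19 and 3, and the adaptor gene Shc1 13 and 2, with an interval that holds a ratio of 1. Stat5b, which relays cytokine signals, had 17 and 23, a 2.02-fold larger share. Nras, the deepest of the list with 146 and 50, was 1.96-fold lower, just short of the 2-fold mark. These counts depend on the setting. On the median ratio scale, where all log2 ratios are 0.12 lower, 8 of the 11 were lower and none higher. Over all genes 31.7% were lower and 19.5% higher on that scale. Scaled by totals without globin and ribosomal protein genes, 7 of the 11 were lower and none higher, beside 30.7% and 20.1%. Over introns with reads in both pools, 1 of 8 was lower and 2 higher, beside 19.3% and 17.8% over all genes. Among genes with at least 50 observations, 0 of 4 were lower, beside 24.0% over all genes. By the deepest intron, 1 of 3 was lower, beside 23.5%. Under both of these settings none was higher, beside 18.5% and 20.0%. Requiring both a 2-fold lower share and an interval that leaves out 1, an alternative chosen after seeing the data, left Ptpn6, Cbl and Lyn, 3 of the 11, beside 24.6% of all genes.

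Cyclins, kinases and inhibitors of the first cell cycle gap had 19 of 20 genes with a line and 11 with at least 10 observations, with 2 lower, 2 higher and a median log2 ratio of -0.10. Ccne2, a cyclin of entry into DNA synthesis, had 53 and 15 observations, and the inhibitor gene Cdkn2d 12 and 4, the latter pair with an interval that holds a ratio of 1. Ccnd2, a cyclin that binds CDK4 and CDK6, had 6 and 22, and E2f4, a factor linked to cell cycle exit, 4 and 13. Cdk4, the close relative of Cdk6, had 56 and 34 observations, a 1.11-fold lower share with an interval of the ratio, induced over uninduced, from 0.573 to 1.41. Tfdp1, the deepest of the list, had 89 and 58.

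Splicing of these related genes was compared where at least 10 observations were present in each pool. This held for 2 genes of the MYC network, 3 partners, 3 ETS genes, 6 KIT signalling genes and 5 cell cycle genes, and none passed Fisher's exact test, beside 10.9% of all genes on summed observations. With the deepest intron only, the calls over all genes were 19 of 1009. The smallest unadjusted p was 0.106, for Cdk4, whose coSE was 0.625 before and 0.794 after induction (adjusted p 0.378 by Fisher's exact test).

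**Figure D5:**
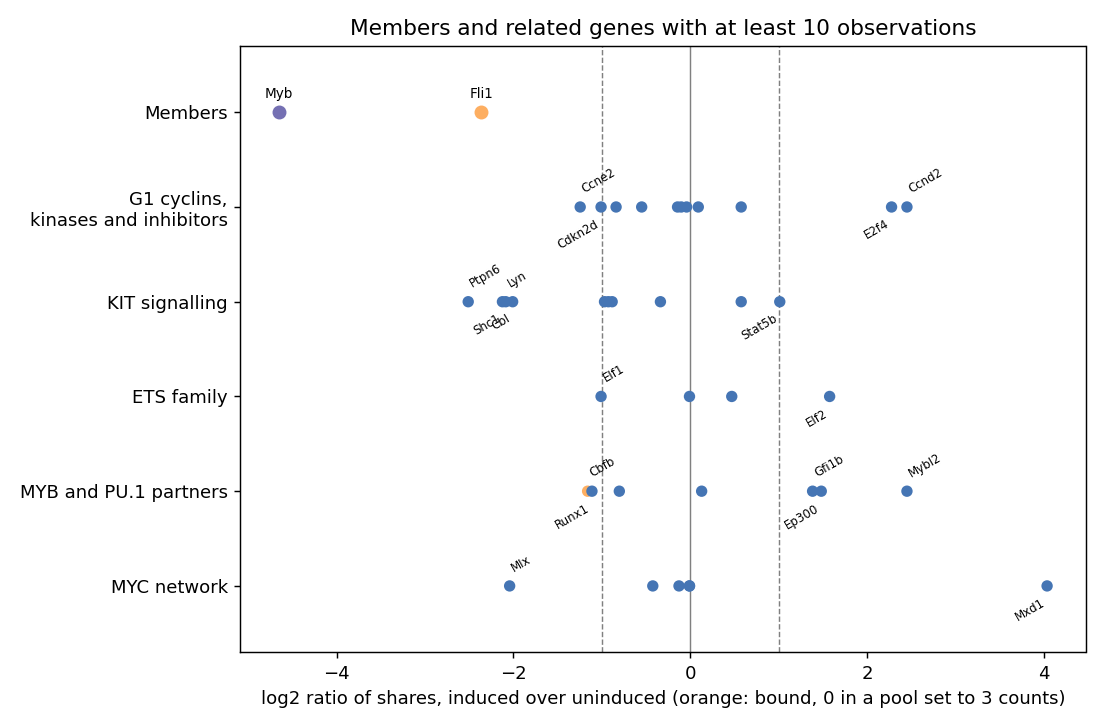
log2 ratio of shares, induced over uninduced, for Myb and Fli1 and for genes of the 5 lists with at least 10 observations in both pools added; orange points have 0 in a pool, set to 3 counts, and names are given for genes beyond the dashed 2-fold lines, and 1 lower KIT signalling gene is not drawn. Myb lies at -4.65, farther from 0 than any gene drawn; Mxd1 is the farthest on the higher side.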

How the data were processed

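The authors' deposited tables hold, per the file headers, raw counts of spliced reads, unspliced reads and splicing intermediates per intron and condition, NIC as a fraction, GC content as a percent and a score per splice site. The submitters' processing notes name mm10, cutadapt, minimap2, SAMtools and bedtools with no role; filters and the scoring program are not given in the sources used here. Lines were read as the pools of the 4 uninduced and 4 induced long-read libraries; the other groups were not analysed here.

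Introns were matched by transcript to GENCODE mouse release 21 (GRCm38), adding 2 to the start and taking 1 from the end. Positions are 1-based. Tests were two-sided Fisher's exact tests on genes or introns with at least 10 observations in each pool. Benjamini-Hochberg adjustment was over all those tested (threshold 0.05, scipy 1.17.1). The gene test of coSE and the calls on shares were tried on simulated counts drawn independently. Such counts do not show how the gene test behaves where introns share reads. Shares were scaled to each pool's total, and a pool at 0 was set to 3 counts. The rule for named introns was at least 10 reads in a pool, or the deepest of a member. Other introns of Myb, Spi1, Fli1 and Myc that are given singly were chosen after their values were seen. Members and lists were chosen with earlier results of these data known. The rule for the most similar genes needed 20 observations in each pool, which no member had. The values of 1 KIT signalling gene, which is counted in its list, are not reported here.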

Additional observations from a re-analysis of the deposited data

How the results depend on the processing

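The log2 ratio of the share of Myb ranged from -4.78 (median ratio scale, which shifts all genes by 0.12) to -3.56 (introns with reads in both pools, which are picked by their induced read); the scalings and the larger minimum could hardly move it. The count of genes with a changed coSE went from 384 to 19 when only the deepest intron of each gene was used, with 1009 genes tested. Genes with a lower share numbered 1743 of 5923 (29.4%). By the deepest intron they were 759 of 3231 (23.5%), and among genes with at least 50 observations 712 of 2961 (24.0%). Over introns with reads in both pools they were 940 of 4879 (19.3%). Genes with a higher share numbered 1278 (21.6%), and 645 (20.0%) and 549 (18.5%) under the first and second of these. With fewer genes tested, the counts thus fell more than the shares. The other 25 alternative values were counted as unchanged. For counts of genes or introns this meant within 1.5 times the main count, whatever the number tested. Values of Myb had to stay in the counting interval of the main value, and Fli1 at least 2-fold lower. Shares called could still change. With no minimum beyond 1, 354 of 6340 genes (5.58%) had a changed coSE, against 384 of 3529 (10.9%). With a minimum of 5, 50 of 11556 introns were called, against 71 of 4403. No paired analysis was possible because the deposited lines already add the replicates of a condition together; fits without each replicate were not run for the same reason. Depth limits all members: none had the 10 observations in each pool that the comparison of coSE required.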
